A study of Homo sapiens with 15 samples.

Results

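NGP and KELLY are established human neuroblastoma cell lines, and the expression of all measured genes in NGP was set against that in KELLY. The comparison used 6 of the 15 arrays of the series by the line named in their titles, 3 of NGP and 3 of KELLY. The other 9 arrays were of BE(2)-C, SH-SY5Y and SK-N-AS, and they served to place the levels of both lines. Neither line was treated, and both were grown in DMEM with 10% serum. Per the labels, the cells were counted before isolation, ERCC external RNA controls went in with the lysis, and 100 ng of total RNA was labelled with biotin for a 3' expression array. Each line is a single cell line from a tumour, so a difference between them is a difference between these lines and cannot be carried over to a class of tumours.

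Neuroblastoma is a childhood tumour of the sympathoadrenal lineage, the neural crest cells that form sympathetic neurons and the chromaffin cells of the adrenal medulla. Such cells make catecholamines from tyrosine in a short chain of enzymes and store them, with peptides and chromogranins, in dense-core granules. NGP and KELLY are both known to carry extra copies of MYCN, a MYC family gene whose product pairs with MAX to drive growth genes. The lineage state is held by a core set of transcription factors that includes HAND2, GATA3, PHOX2A and ISL1.

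Values are linear intensities of probe sets, and a gene is represented by its probe set of highest mean across the 15 arrays. A gene was tested when its mean reached an intensity of 80.6, the median of all values, in at least 1 of the 5 lines, which kept 12721 of 18244 genes. Of those kept, 1878 were under this filter in both NGP and KELLY. Levels are given as deposited. Differences are NGP minus KELLY on the log2 scale, with every array first centred by its own median, and are given with their standard error (SE), unless a sentence says otherwise. Readings well under 80.6 lie at the dim end, where the size of a fold is uncertain. The median intensities of the arrays were 78.7, 78.3 and 73.4 in NGP, against 66.7, 68.8 and 69.3 in KELLY, so every NGP array was brighter than every KELLY array. They were 102 to 103 in BE(2)-C, 51.9 to 57.2 in SH-SY5Y and 121 to 126 in SK-N-AS, so levels as deposited also carry these gaps. Over the tested genes, the median log2 intensity was 8.06 ± 0.06 in NGP and 7.76 ± 0.04 in KELLY (SD, n = 3 each), and centring lowered each difference by their gap of 0.30. The median of the tested genes relative to the 33 ERCC probe sets above the filter was -0.98 ± 0.09 in NGP and -1.22 ± 0.02 in KELLY (log2, SD, n = 3 each). This difference of 0.24 gave an exact two-sided permutation p of 0.1, the smallest that 3 arrays against 3 allow. For the ACTB control, 3' probes exceeded 5' probes on the log2 scale by 1.23 ± 0.08 in NGP and 1.08 ± 0.12 in KELLY (SD, n = 3 each), and the part of RNA quality in the results was not tested. Of 13 neuroblastoma markers on the array, all 13 exceeded the filter in both lines. Endothelial markers passed it for 0 of 7 genes in both lines, and epithelial markers for 1 of 11 in each. The labels number the replicates without calling them separate cultures, so p-values measure the spread between these arrays, which may be technical.

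A total of 1790 genes differed between the lines, at an adjusted p under 0.05 and a difference of at least 1, which is 14.1% of those tested. NGP was higher for 876 genes (6.89%) and lower for 914 (7.18%). On the scale as deposited, 1485 genes were higher (11.7%) and 568 lower (4.47%), so the share of calls that were higher was 48.9% after centring and 72.3% without it. All 876 genes called higher and 568 of the 914 called lower were called on both scales. The arrays of the lines did not overlap for 8752 genes (68.8%). Replicates had a median SD of 0.09 on the log2 scale. The fold threshold rather than the p-value set the calls, since all 1790 genes with a difference of at least 1 also passed the p-value. Differences of 3 or more were found for 198 genes, 79 higher and 119 lower. In bulk RNA, fewer cells with a transcript and less of it per cell cannot be told apart, and that holds for every difference below.

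**Figure D1:**
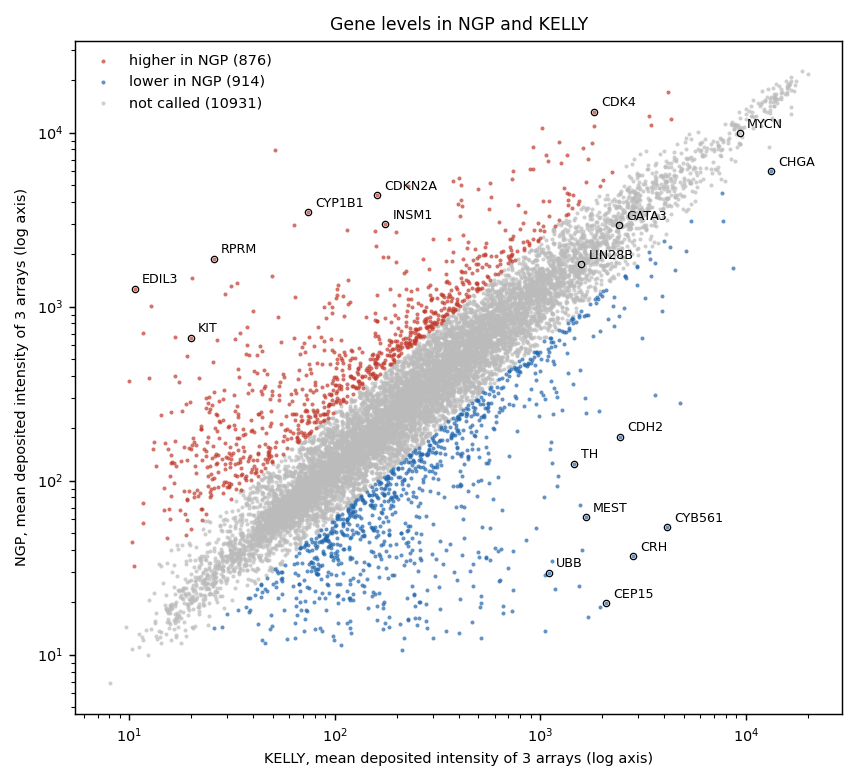
Mean deposited intensity of each of 12721 genes in NGP (vertical, log axis) against KELLY (horizontal, log axis), 3 arrays each, with 876 genes called higher in NGP in red and 914 called lower in blue. MYCN and LIN28B sit on the diagonal, whereas EDIL3 and RPRM lie far above it and CEP15 and CRH far below it.

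NGP and KELLY had the fewest calls of the 10 pairs of lines on centred arrays. The next pair, KELLY and SH-SY5Y, had 14.9% of genes called, and the widest pair, NGP and SK-N-AS, had 30.1%. As deposited the order changed, with 16.1% for NGP and KELLY and 15.7% for KELLY and SH-SY5Y. Arrays of NGP and KELLY correlated at 0.888 to 0.892 over the tested genes, and those of BE(2)-C and SH-SY5Y at 0.889 to 0.891, so nearness by correlation was tied.

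MYCN itself did not separate the lines. It read 10622, 9690 and 9463 in NGP, against 9253, 9551 and 9286 in KELLY. As deposited, both lines were thus far above SH-SY5Y, with a mean of 152, and SK-N-AS, with 78.8, and below the 13689 of BE(2)-C. The BE(2)-C arrays were brighter, so the order against that line depends on the scaling. Between NGP and KELLY the difference was -0.22 ± 0.12 on centred arrays (adjusted p = 0.111) and 0.08 as deposited. Its sign thus also depends on the scaling. MYC, the relative that many lines without MYCN amplification use, read 31.6 on average in NGP and 30.2 in KELLY, under the filter in both. MYCL, the third family member, read 236, 259 and 232 in NGP, against 36.1, 36.4 and 28.3 in KELLY. NGP exceeded KELLY by 2.52 ± 0.11 (adjusted p = 1.63e-12). Of 13 genes of the MYC family and MAX network, 2 were higher in NGP and 0 lower (15.4%, beside 14.1% of all genes). Besides MYCL the higher one was MLXIP, a glucose-sensing partner of MLX, at 3.30 ± 0.06. MAX was not called, at 0.64 ± 0.05.

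Of 33 tested genes that flank MYCN on the short arm of chromosome 2, 2 were higher and 2 lower (12.1%, beside 14.1% of all genes), and 4 were higher and 1 lower as deposited. CYRIA, a RAC1-binding regulator of actin, read 2356, 2303 and 2386 in NGP, against 426, 463 and 441 in KELLY, a difference of 2.10 ± 0.09. KLF11, a Krüppel-like repressor, was lower by -1.92 ± 0.09. CYRIA averaged at most 30.6 in each of the 3 remaining lines, so NGP and KELLY were the lines that held it above the filter.

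The called genes around CDK4 and MDM2 on chromosome 12 were all higher in NGP. CDK4, the cyclin D partner kinase that phosphorylates RB1, read 13623, 14042 and 12000 in NGP, against 1725, 1853 and 1897 in KELLY. The lines differed by 2.55 ± 0.06, or 5.88-fold, and the NGP mean exceeded the 5913 of SK-N-AS, the next line. MDM2, a ubiquitin ligase often amplified in tumours, read 814, 802 and 873 in NGP, against 150, 174 and 159 in KELLY. Its difference was 2.06 ± 0.07 (adjusted p = 6.6e-14), and all 9 of its other probe sets above the filter had the same sign. Of 25 genes tested near CDK4, 11 were higher, 0 lower and 14 not called (44% called, beside 14.1% of all genes). As deposited 17 were higher and 0 lower. Their median difference was 0.93, beside -0.02 over all genes. Near MDM2, 9 of 24 were higher, 0 lower and 15 not called (37.5% called), with a median of 0.30. There 1 gene was called lower when NGP replicate 1, NGP replicate 3 or KELLY replicate 2 was left out.

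Several of these chromosome 12 genes were bright in NGP. ATP23, a mitochondrial inner membrane protease, read 5340, 4772 and 4786 in NGP, against 218, 221 and 242 in KELLY (4.15 ± 0.07). METTL1, which methylates guanosine in tRNA, differed by 3.44 ± 0.08 and EEF1AKMT3, a methyltransferase of elongation factor 1A, by 3.37 ± 0.06. CNOT2, a subunit of the CCR4-NOT deadenylase, read 11148, 10933 and 9943 in NGP, against 894, 1016 and 1156 in KELLY (3.09 ± 0.07). SLC35E3, RAP1B and CPM differed by 2.99 ± 0.09, 2.60 ± 0.06 and 2.66 ± 0.12. NUP107, of the nuclear pore, and YEATS4, a chromatin reader, followed at 2.54 ± 0.07 and 2.44 ± 0.08. DNA copy number was not analysed here.

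CDKN2A, which encodes the CDK4 inhibitor p16 and the MDM2 inhibitor ARF, was also far higher in NGP. It read 4125, 4854 and 4130 in NGP, against 154, 167 and 164 in KELLY, a difference of 4.45 ± 0.07. As deposited, BE(2)-C and SK-N-AS averaged 1714 and 5640, and SH-SY5Y 76.3. After centring NGP lay above every other line, by at least 0.45. The probe set does not tell p16 from ARF. Among 25 regulators of the G1 phase, CDK4 and CDKN2A were higher and 3 genes lower (20%, beside 14.1% of all genes). As deposited 5 were higher and 2 lower. CDKN1C, which encodes the CDK inhibitor p57, was lower by -2.84 ± 0.15 and E2F5, a repressive E2F, by -2.64 ± 0.07. CDKN1B, which encodes p27, was lower by -1.08 ± 0.07 and was not called as deposited. CCND1, cyclin D1, averaged 2942 in NGP and 1260 in KELLY and was called only as deposited, at 1.22, beside 0.92 after centring.

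Of 25 apoptosis genes, 5 were lower and 2 higher (28%, beside 14.1% of all genes), but as deposited 1 was lower and 2 higher. TNFRSF10B, a receptor for the death ligand TRAIL, averaged 23.9 ± 1.55 in NGP and 1182 ± 68.6 in KELLY (SD, n = 3 each). At -5.87 ± 0.05 it was called lower on both scales. BCL2, which blocks the mitochondrial route, was lower by -1.19 ± 0.11 after centring alone. DIABLO, which releases caspases from their inhibitors, read 6932, 7350 and 6240 in NGP, against 1021, 1079 and 1174 in KELLY, a difference of 2.35 ± 0.07. It lies on chromosome 12 within a stretch described below.

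Factors of the adrenergic state split between the lines, with 14 of 28 called (50%, beside 14.1% of all genes). Of these, 6 were higher and 8 lower in NGP. Among the core members, HAND2, GATA3 and PHOX2A were not called and ISL1 was. HAND2 averaged 9104 in NGP and 8162 in KELLY (-0.14 ± 0.04), GATA3 2934 in NGP and 2406 in KELLY (-0.01 ± 0.05), and PHOX2A 1367 in NGP and 1203 in KELLY (-0.12 ± 0.06). These 3 differences turned positive as deposited, at 0.16, 0.29 and 0.18, and none of the 3 was called on either scale. TWIST1, a MYCN partner in this tumour, was not called either, at -0.01 ± 0.08, and 0.29 as deposited.

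INSM1, a zinc finger repressor of neuroendocrine precursors, had the largest positive difference of the list. It read 2897, 3193 and 2857 in NGP, against 170, 176 and 183 in KELLY, a difference of 3.77 ± 0.10. KELLY was the next line, since the other 3 averaged from 18.8 to 57.3. DACH1, a developmental repressor, was higher by 2.56 ± 0.08, and SOX11 and SOX4, SOXC factors of immature neurons, by 1.75 ± 0.14 and 1.43 ± 0.07. ISL1 averaged 2395 in NGP and 972 in KELLY and lay at the threshold, under 1 with quantile normalization.

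KELLY had more of several other adrenergic factors. TBX3, a T-box repressor, read 238, 267 and 244 in NGP, against 1983, 1769 and 2024 in KELLY (-3.24 ± 0.06). GATA2 read 3175, 3081 and 3069 in NGP, against 7382, 7644 and 8243 in KELLY (-1.62 ± 0.04). LMO3, a LIM-only cofactor, was lower by -2.44 ± 0.10, TBX2 by -1.33 ± 0.06 and EYA1 by -1.34 ± 0.06. Over both scales the list had calls in either direction, with 8 higher and 5 lower as deposited.

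Factors of the mesenchymal state also went both ways, with 6 of 37 higher and 6 lower (32.4%, beside 14.1% of all genes). EGR3, an immediate early factor, was higher by 2.06 ± 0.08, KLF4 by 2.04 ± 0.12 and SNAI2, a regulator of neural crest migration, by 1.51 ± 0.06. ID3, an inhibitor of basic helix-loop-helix factors, read 955, 1007 and 869 in NGP, against 3974, 3484 and 4312 in KELLY (-2.35 ± 0.06). SOX9, of the neural crest, was lower by -1.91 ± 0.08. Outside both lists, NEUROG2, a proneural factor that drives sensory neurogenesis, averaged 1182 in NGP and 29.3 in KELLY (4.99 ± 0.14).

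The catecholamine pathway was lower in NGP at several steps of synthesis and storage. Of 19 genes tested, 7 were lower and 1 higher (42.1%, beside 14.1% of all genes). Over all genes 7.18% were lower. The number lower in the list was 6 as deposited and 5 when probe sets were averaged. TH, the rate-limiting enzyme that hydroxylates tyrosine, read 136, 107 and 133 in NGP, against 1432, 1463 and 1495 in KELLY. NGP was lower by -3.84 ± 0.12, or 14.4-fold, with no overlap of the arrays. DDC, which makes dopamine from DOPA, read 1195, 1170 and 1097 in NGP, against 3688, 3909 and 4072 in KELLY (-2.05 ± 0.06). The other DDC probe set above the filter had the opposite sign. DBH, which turns dopamine into noradrenaline, read 759, 825 and 750 in NGP, against 2220, 2286 and 2325 in KELLY (-1.85 ± 0.06).

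The vesicular transporters that load amines into granules were near the dim end in NGP. SLC18A2 read 41.1, 43.4 and 35.2 in NGP, against 1568, 1557 and 1635 in KELLY, a difference of -5.58 ± 0.09. SLC18A1 was lower by -4.50 ± 0.08. KELLY alone held SLC18A2 at this level, since the 3 lines other than NGP and KELLY averaged from 37.6 to 188. CYB561, the granule membrane protein that regenerates ascorbate for DBH, read 60.8, 54.5 and 46.6 in NGP, against 4037, 4041 and 4299 in KELLY (-6.54 ± 0.06). All 8 of its other probe sets above the filter had the same sign, and the remaining 3 lines averaged 3221 or more, so NGP was the line that lacked it. GCH1, which makes the tetrahydrobiopterin that TH needs, was the exception, at 902, 871 and 867 in NGP, against 228, 221 and 216 in KELLY (1.69 ± 0.09).

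The granule proteins showed no such common direction, with 3 of 26 higher and 3 lower (23.1%, beside 14.1% of all genes). CHGA, the major chromogranin, read 5973, 6518 and 5549 in NGP, against 12434, 13356 and 14125 in KELLY (-1.45 ± 0.06). SCG5, the chaperone of prohormone convertase 2, averaged 39.6 in NGP and 624 in KELLY (-4.24 ± 0.09), and CADPS, which primes dense-core granules, was lower by -1.32 ± 0.14. CHGB was higher by 1.04 ± 0.06, VGF by 1.11 ± 0.07 and SNAP25, of the fusion machinery, by 1.02 ± 0.07. As deposited 7 members were higher and 3 lower.

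Neuropeptides had the largest share of calls among the lists with 10 or more genes tested, at 52.9%, beside 14.1% of all genes. Of 17 genes, 9 were called, 3 higher and 6 lower. CRH, the corticotropin-releasing hormone, read 39.2, 43.5 and 28.0 in NGP, against 2582, 2897 and 2973 in KELLY (-6.54 ± 0.12). SST, somatostatin, read 24.6, 22.3 and 12.6 in NGP, against 506, 523 and 522 in KELLY (-4.99 ± 0.22). CARTPT, the CART peptide, was lower by -4.20 ± 0.23 and PENK, proenkephalin, by -1.88 ± 0.15. NGP instead had CALCB, which encodes a calcitonin gene-related peptide, at 646, 694 and 619, against 31.9, 35.0 and 31.0 in KELLY (3.98 ± 0.08). NMU, neuromedin U, was higher by 2.64 ± 0.11, and so was SSTR2, a somatostatin receptor, by 2.16 ± 0.10. Peptide and receptor thus sat in different lines, with SST read in KELLY and SSTR2 higher in NGP.

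**Figure D2:**
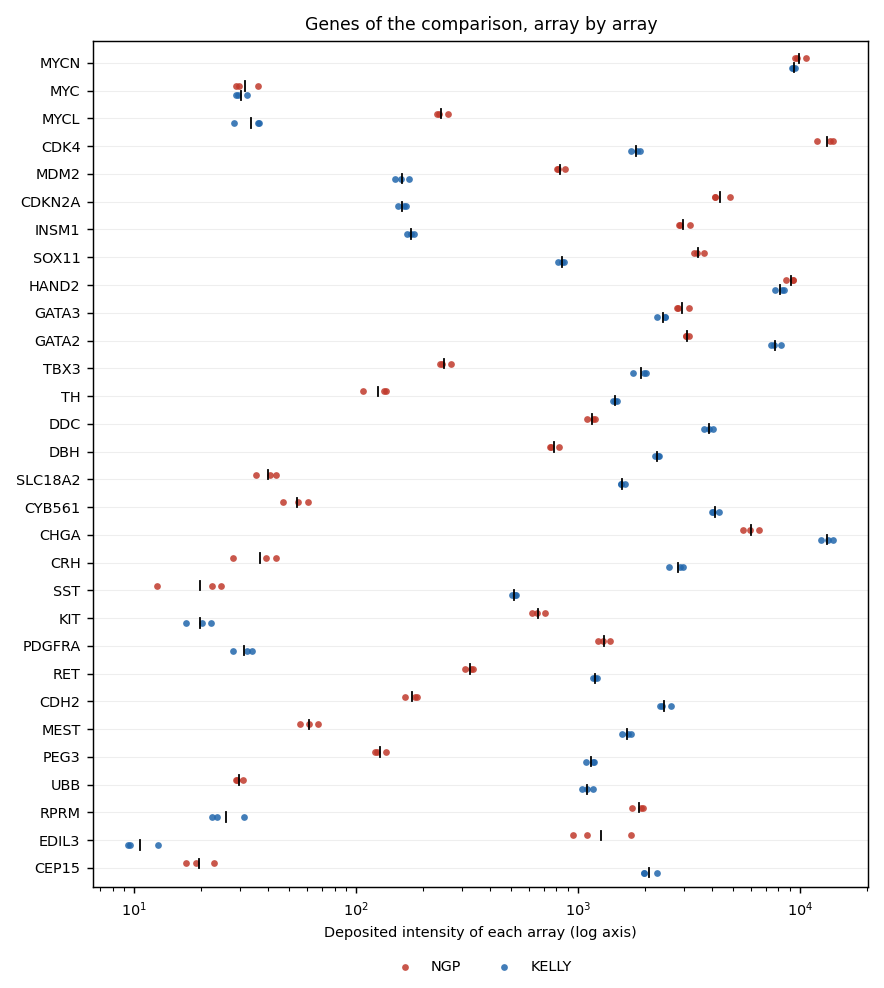
Deposited intensity on a log axis for 30 genes, with NGP arrays in red above KELLY arrays in blue and a black tick at each mean of 3 arrays. MYCN, MYC, HAND2 and GATA3 lie side by side, CDK4, CDKN2A and INSM1 are higher in NGP, and TH, SLC18A2, CYB561, CRH and UBB are lower.

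Genes of the neuronal cytoskeleton and growth cone were higher for 2 of 32 and lower for 4 (18.8% called, beside 14.1% of all genes). RTN1, a reticulon of neuroendocrine cells, read 1585, 1605 and 1431 in NGP, against 355, 340 and 354 in KELLY (1.84 ± 0.10). DCX, which binds microtubules in migrating neurons, was higher by 1.16 ± 0.11. STMN4 and GPM6A were lower by -1.77 ± 0.08 and -1.68 ± 0.12. As deposited the counts were 9 higher and 3 lower, against 2 higher and 4 lower after centring.

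Of 40 axon guidance genes, 9 were higher and 8 lower (42.5%, beside 14.1% of all genes). NRP2, a receptor for class 3 semaphorins, read 873, 938 and 955 in NGP, against 98.3, 92.5 and 98.4 in KELLY (2.94 ± 0.09). Its relative NRP1 was lower, at -1.35 ± 0.08. Among the neogenin partners, NEO1 itself was higher by 2.67 ± 0.13 and its ligand RGMB by 2.01 ± 0.08. The ligand RGMA went the other way, at 258, 262 and 249 in NGP, against 1165, 1362 and 1300 in KELLY (-2.61 ± 0.08). PLXNA2, a semaphorin co-receptor, was lower by -3.04 ± 0.07, EFNB2, an ephrin, higher by 2.10 ± 0.07 and EFNA1 lower by -2.47 ± 0.08.

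Of 34 ion channel genes, 10 were higher and 3 lower (38.2%, beside 14.1% of all genes). KCNH8, a voltage-gated potassium channel, averaged 251 in NGP and 18.1 in KELLY (3.45 ± 0.17). KCNH1, of the same family, was higher by 2.48 ± 0.13, CACNA1A, the pore of P/Q-type calcium channels, by 2.50 ± 0.14 and P2RX7, an ATP-gated channel, by 2.55 ± 0.19. KCNIP4, a potassium channel subunit, was lower by -2.33 ± 0.18. P2RX7 lies on chromosome 12 within a stretch described below. As deposited 11 channel genes were higher and 2 lower. That scale raises every difference by 0.30, so it could not have weakened a lean towards NGP.

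The cadherins went both ways between the lines. Of 19 tested, 5 were higher and 5 lower in NGP (52.6%, beside 14.1% of all genes). CDH2, N-cadherin, the main adhesion molecule of neural cells, read 184, 188 and 166 in NGP, against 2345, 2401 and 2612 in KELLY. The difference was -4.07 ± 0.07, and the other 3 lines averaged from 1707 to 4564, so NGP was the line low in CDH2. PCDH19 read 21.8, 16.4 and 20.7 in NGP, against 266, 291 and 280 in KELLY (-4.07 ± 0.15), and CDH10 was lower by -2.64 ± 0.13. PCDH8, a protocadherin that regulates N-cadherin at synapses, read 1110, 1247 and 1127 in NGP, against 107, 104 and 94.4 in KELLY (3.20 ± 0.14). PCDH20 followed at 2.58 ± 0.11 and PCDH9 at 1.09 ± 0.06.

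Of 51 matrix and integrin genes, 7 were higher and 6 lower (25.5%, beside 14.1% of all genes). The counts were 12 higher and 6 lower as deposited, and 3 higher and 5 lower when probe sets were averaged. ITGA6, the laminin-binding alpha-6 integrin, read 18.1, 20.5 and 16.3 in NGP, against 318, 313 and 340 in KELLY (-4.38 ± 0.07). COL6A3, a collagen VI chain, was lower by -3.55 ± 0.07 and THBS2, a thrombospondin, by -3.83 ± 0.17. NID1, nidogen of the basement membrane, read 335, 358 and 435 in NGP, against 10.6, 10.2 and 9.11 in KELLY (4.80 ± 0.19). Outside the list, EDIL3, a secreted integrin ligand, led the named genes higher in NGP, at 952, 1101 and 1737, against 9.42, 9.57 and 12.8 in KELLY (6.43 ± 0.20). Fibroblast markers also differed, with 2 of 8 tested higher and 1, ACTA2, lower (-1.21 ± 0.11, 23.8 on average in NGP and 45.6 in KELLY), a call not made as deposited. Of 10 on the array, 5 passed the filter in NGP and 2 in KELLY, and their summed intensity was 1996 to 2188 in NGP and 512 to 569 in KELLY. PDGFRA made up most of that sum in NGP, and LUM, lumican, averaged 126 in NGP and 16.5 in KELLY. The part of these markers in the matrix differences was not tested.

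Receptor tyrosine kinases and their partners were called for 12 of 34 genes (35.3%, beside 14.1% of all genes), 8 higher and 4 lower. KIT, the stem cell factor receptor, read 655, 712 and 623 in NGP, against 22.2, 17.2 and 20.2 in KELLY (4.70 ± 0.16). Its ligand KITLG was higher too, by 1.49 ± 0.08. PDGFRA, the alpha receptor for platelet-derived growth factor, read 1396, 1295 and 1227 in NGP, against 32.2, 27.9 and 34.0 in KELLY (5.04 ± 0.07). INSR, the insulin receptor, read 448, 286 and 376 in NGP, against 20.7, 14.8 and 16.9 in KELLY (4.02 ± 0.14). IGFBP5, which binds insulin-like growth factors, was higher by 3.07 ± 0.08 and ERBB4, a neuregulin receptor, by 2.93 ± 0.11. Its ligand NRG1 was lower by -2.43 ± 0.09. MET, the hepatocyte growth factor receptor, read 40.7, 39.3 and 45.9 in NGP, against 253, 208 and 220 in KELLY (-2.71 ± 0.10), and EGFR was lower by -1.80 ± 0.08.

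Of 13 genes around ALK, RET and the neurotrophin receptors, 2 were higher and 4 lower (46.2%, beside 14.1% of all genes). ALK, the kinase mutated in a share of neuroblastomas, read 327, 238 and 356 in NGP, against 200, 216 and 224 in KELLY, and was not called (0.20 ± 0.13, adjusted p = 0.192). The NGP arrays spread more than those of KELLY and lay above all of them as deposited, but overlapped them after centring. ALKAL1, an ALK ligand, was lower by -2.10 ± 0.19 and PTN, pleiotrophin, by -2.77 ± 0.11. RET, the receptor of the glial cell line-derived neurotrophic factor family, read 329, 337 and 309 in NGP, against 1189, 1174 and 1217 in KELLY (-2.17 ± 0.05). Of its co-receptors, GFRA2 was lower by -1.72 ± 0.06 and GFRA1 higher, with 528 on average in NGP and 151 in KELLY, so the pair shifted against each other. NGFR, the low-affinity neurotrophin receptor, was higher by 2.23 ± 0.16, with its other probe set of the opposite sign. NTRK2 was under the filter in every line.

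Feedback genes of RAS and MAPK signalling went both ways, with 3 of 22 higher and 3 lower (27.3%, beside 14.1% of all genes). PHLDA1, an early ERK target, read 1541, 1485 and 1467 in NGP, against 47.8, 51.4 and 48.5 in KELLY (4.60 ± 0.06). IER3 was higher by 3.05 ± 0.07 and DUSP1, a phosphatase of MAP kinases, by 1.97 ± 0.06. ETV5 and SPRY4, also ERK-responsive, were lower by -1.85 ± 0.07 and -1.49 ± 0.07. The list therefore showed no single direction. PKIB, an inhibitor of protein kinase A, read 2948, 3347 and 2589 in NGP, against 61.5, 67.8 and 61.1 in KELLY (5.22 ± 0.14). PRKAR2A, a regulatory subunit of that kinase, read 27.8, 43.7 and 32.1 in NGP, against 1076, 1113 and 1241 in KELLY (-5.33 ± 0.11).

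Among 26 genes of TGF-beta and BMP signalling, 6 were higher and 3 lower (34.6%, beside 14.1% of all genes). The higher ones were largely receptors. BMPR1B read 847, 857 and 888 in NGP, against 90.4, 89.1 and 91.0 in KELLY (2.95 ± 0.06). The receptors ACVR1C, ACVR1, TGFBR1 and BMPR2 were higher by 1.78 ± 0.14, 1.44 ± 0.07, 1.39 ± 0.06 and 1.25 ± 0.05. ACVR1C and ACVR1 lie on chromosome 2 between PTPN18 and SCN3A, and TGFBR1 on chromosome 9 between TBC1D2 and ECPAS. Both are regions of neighbouring genes, as defined below, with a median difference of 0.87. The part of position in these receptor differences was not tested. The ligands BMP7 and TGFB1 were lower, by -1.54 ± 0.08 and -1.45 ± 0.11, as was the target ID3. In the NOTCH pathway 4 of 21 were higher and 1 lower (23.8%, beside 14.1% of all genes). JAG1, a ligand, was higher by 3.36 ± 0.11 and HES6, a proneural cofactor, by 2.39 ± 0.08, while HEY1, a direct target, was lower by -2.01 ± 0.06. WNT genes were higher for 6 of 32 and lower for 2 (25%, beside 14.1% of all genes), and for 7 and 1 as deposited. The higher ones were led by LEF1, a nuclear effector, at 388, 415 and 368 in NGP, against 19.3, 22.5 and 23.1 in KELLY (3.81 ± 0.12). FZD1, a receptor, and FRZB, a secreted antagonist, were both higher, by 2.40 ± 0.11 and 2.17 ± 0.08.

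UBB, a polyubiquitin gene, separated both lines from the other 3. It read 31.0, 29.1 and 28.7 in NGP, against 1101, 1044 and 1165 in KELLY, a difference of -5.47 ± 0.06. BE(2)-C, SH-SY5Y and SK-N-AS averaged 22832, 11154 and 19850, so KELLY was also far below them. Of 10 ubiquitin genes, 3 were lower after centring (30%, beside 14.1% of all genes) and UBB alone as deposited.

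Iron and ferroptosis genes were called for 8 of 18 (44.4%, beside 14.1% of all genes), with 2 higher and 6 lower. As deposited 2 were higher and 3 lower. SLC7A11, the cystine importer, read 317, 366 and 334 in NGP, against 1187, 1088 and 1234 in KELLY (-2.08 ± 0.11). HMOX1, haem oxygenase, was lower by -2.63 ± 0.09 and AIFM2, which reduces coenzyme Q against lipid peroxidation, by -2.61 ± 0.08. All 3 were lower on both scales. ACSL4, which loads membranes with polyunsaturated lipids, was higher by 1.41 ± 0.10, with its other probe set of the opposite sign.

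In nucleotide, serine and one-carbon synthesis 9 of 40 genes were lower and 2 higher (27.5%, beside 14.1% of all genes). As deposited 3 were lower and 2 higher. GLDC and AMT, of the glycine cleavage system, were lower by -2.40 ± 0.09 and -1.65 ± 0.13. ASS1, which makes argininosuccinate, read 6367, 7763 and 7043 in NGP, against 1559, 1758 and 1801 in KELLY (1.75 ± 0.11), whereas the next enzyme, ASL, was lower by -1.46 ± 0.05. In glycolysis, cholesterol synthesis and lipid uptake 5 of 37 were higher and 4 lower (24.3%), and 8 and 3 as deposited. The sterol genes FDPS, HMGCS1 and INSIG1 were higher by 1.56 ± 0.04, 1.93 ± 0.15 and 1.36 ± 0.07. SLC2A1, the basal glucose transporter, was lower by -2.15 ± 0.08, ENO2 by -1.72 ± 0.05, and PFKFB3 higher by 2.81 ± 0.08. ME1, cytosolic malic enzyme, averaged 18.8 in NGP and 511 in KELLY (-4.99 ± 0.10).

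Of 20 imprinted genes, 4 were lower and 0 higher on both scales. That is 20% called, beside 14.1% of all genes, of which 6.89% were higher and 7.18% lower after centring. With 20 genes, so few calls do not show a direction of the list. MEST, expressed from the paternal allele, read 67.1, 61.2 and 55.8 in NGP, against 1584, 1742 and 1676 in KELLY (-5.04 ± 0.07). GRB10, an adaptor that restrains insulin signalling, was lower by -4.44 ± 0.09, PEG3, a paternally expressed zinc finger gene, by -3.46 ± 0.15, and CDKN1C as given above. LIN28B, which blocks let-7 maturation, averaged 1749 in NGP and 1581 in KELLY and was not called (-0.15 ± 0.07, and 0.15 as deposited). Of 19 HOX genes, HOXD10 and HOXD11 were higher, by 3.19 ± 0.07 and 2.18 ± 0.14, and HOXC6 lower by -1.11 ± 0.07, a call not made as deposited. The share of HOX genes called was 15.8%, beside 14.1% of all genes. TERT, the telomerase reverse transcriptase, averaged 253 in NGP and 78.7 in KELLY, a difference of 1.38 ± 0.09, and the remaining 3 lines averaged from 110 to 120.

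The growth machinery had few calls, beside 14.1% of all genes. Of 32 ribosome biogenesis genes 0 were called, also as deposited, and their largest difference was -0.86 ± 0.06, for DDX10. None reached a difference of 1, but 24 of the 32 had an unadjusted limma p under 0.05, as had 8568 of all 12721 genes. Of 65 cytosolic ribosomal proteins 1 was higher and 3 lower (1 and 1 as deposited), and their median absolute difference was 0.11, beside 0.33 over all genes. The exception in size was RPL39L, a paralog of RPL39, at 31.0, 34.5 and 28.9 in NGP, against 706, 673 and 722 in KELLY (-4.74 ± 0.07). Of 44 genes of mitosis and replication 1 was higher and 2 lower, and 3 were higher and 1 lower as deposited. The polycomb and DNA methylation list had EZH2, the histone methyltransferase, lower by -1.40 ± 0.09 and TERT higher, of 31 tested.

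**Figure D3:**
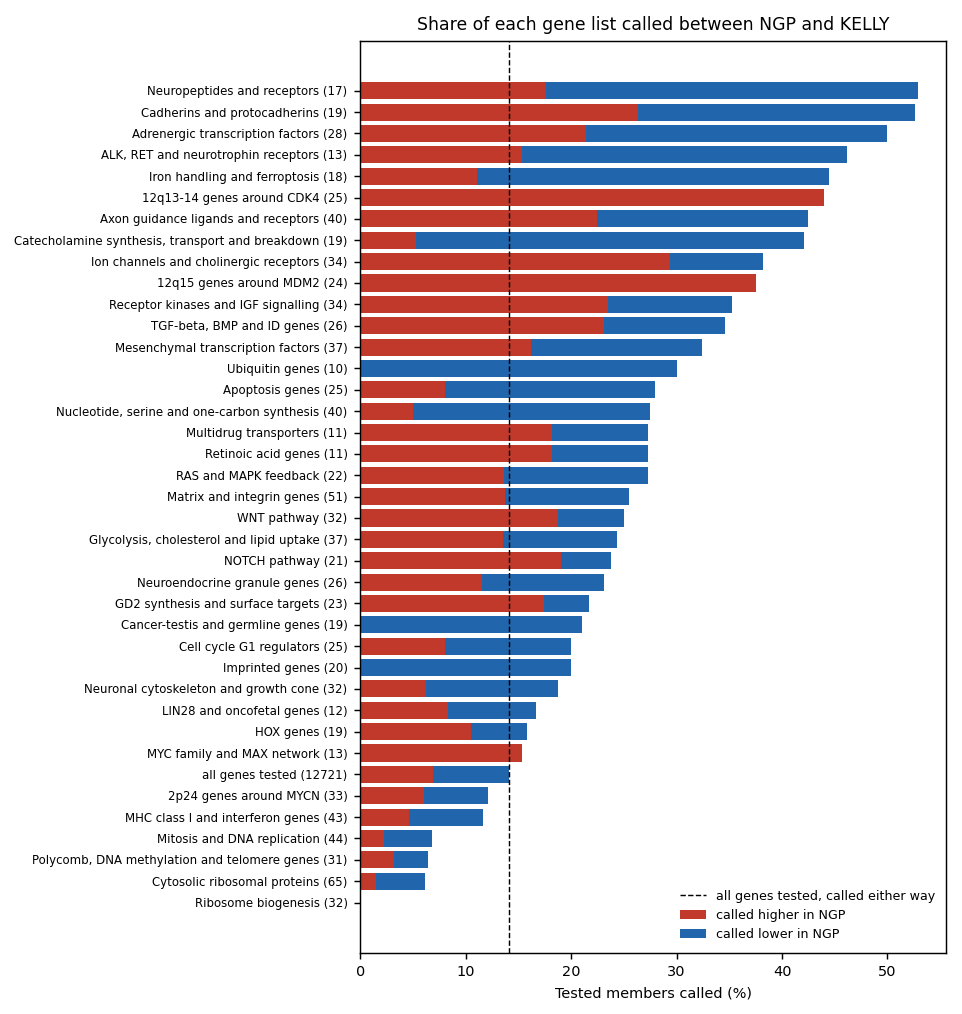
Share of tested members called higher (red) and lower (blue) in NGP, in percent, for the gene lists described with 10 or more tested members (number in brackets) and for all genes tested. The dashed line marks the 14.1% of all genes. Neuropeptides stand at 52.9%, ribosome biogenesis at 0, and the lists around CDK4 and MDM2 hold red bars alone.

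Genes outside these lists also stood at the extremes. RPRM, an inhibitor of the cell cycle, read 1931, 1972 and 1754 in NGP, against 23.6, 22.4 and 31.4 in KELLY (5.85 ± 0.14). COTL1, an actin-binding protein, was higher by 5.81 ± 0.08, CDC14B, a phosphatase, by 5.50 ± 0.07 and CYP1B1, a cytochrome P450, by 5.24 ± 0.08. GOLM1, a Golgi membrane protein, was higher by 4.01 ± 0.09, but its other probe set had the opposite sign. Of the called genes named here, KLF11, KITLG, EGR3, NRP1, RGMA, NRG1, EGFR, SPRY4, TGFBR1, PFKFB3, P2RX7, PCDH9, DCX, GFRA1, SNAP25, TERT, BCL2, HOXC6, ISL1, DDC and ACSL4 fell under a difference of 1 when all probe sets of a gene were averaged. CEP15, a centrosomal protein, averaged 19.7 in NGP and 2085 in KELLY (-6.96 ± 0.11). RAB4A, a GTPase of recycling endosomes, read 20.0, 16.5 and 19.6 in NGP, against 1873, 1991 and 2015 in KELLY (-6.94 ± 0.07). FABP5, a fatty acid carrier, was lower by -6.93 ± 0.11, TRIM29 by -6.20 ± 0.17, NEDD9, a focal adhesion scaffold, by -5.36 ± 0.15 and YES1, a SRC family kinase, by -5.13 ± 0.12.

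The other lines showed on which side some of these genes were unusual. Of the 876 genes higher in NGP, NGP lay above all 4 other lines by at least 1 for 236, and KELLY below all of them by at least 1 for 116. Of the 914 lower in NGP, NGP was below all others for 172 and KELLY above all others for 135. RPRM, CYP1B1, PKIB and NEUROG2 were at least 2 higher in NGP than in any other line. CEP15, RAB4A, FABP5, CYB561 and ZC3HAV1L were at least 2 lower in NGP than in any other. FABP5, for instance, averaged from 484 in SH-SY5Y to 3401 in BE(2)-C outside the pair. In the same sense KELLY stood above the rest for TRIM29, SLC18A2, MAGEA1, NEDD9 and SST, and under the rest for COTL1, CDC14B, CDCA7L, SLITRK6 and ACOT9. For 524 of the higher and 609 of the lower genes neither line lay outside the rest by 1.

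Differences also ran along the chromosomes. The running median over 15 neighbouring tested genes passed 0.8 in size in at least 3 adjoining windows in 32 blocks, which joined into 23 regions. They held 812 genes, 6.38% of those tested, and 340 called genes, 19% of those called. The joining of blocks was chosen after their values were seen, and a region holds genes picked for their common difference, so its counts are descriptions.

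Chromosome 12 had the highest windows. The region from RNF10 to TMED2 held 46 genes with a median of 1.94, and 29 were higher and 0 lower. PSMD9, a chaperone of proteasome assembly, read 5284, 5268 and 5216 in NGP, against 353, 380 and 389 in KELLY (3.51 ± 0.05). TMEM120B averaged 2224 in NGP and 159 in KELLY, and CLIP1, which tracks growing microtubule ends, was higher by 3.32 ± 0.09. MLXIP and DIABLO lay in the same stretch. RNF10 and TMED2 at its ends were not called, at -0.16 ± 0.06 and -0.06 ± 0.06, and 0.14 and 0.24 as deposited. Set against the average of BE(2)-C, SH-SY5Y and SK-N-AS, its genes had a median of 1.73 in NGP and -0.02 in KELLY, so NGP was the line that departed. The region from DCTN2 to TBK1, which holds CDK4, had a median of 0.97 over 29 genes, 0.93 in NGP and -0.02 in KELLY against the other lines. The region from LLPH to RAB21, with MDM2, had a median of 0.52 over 26 genes, and its highest window reached 1.72.

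**Figure D4:**
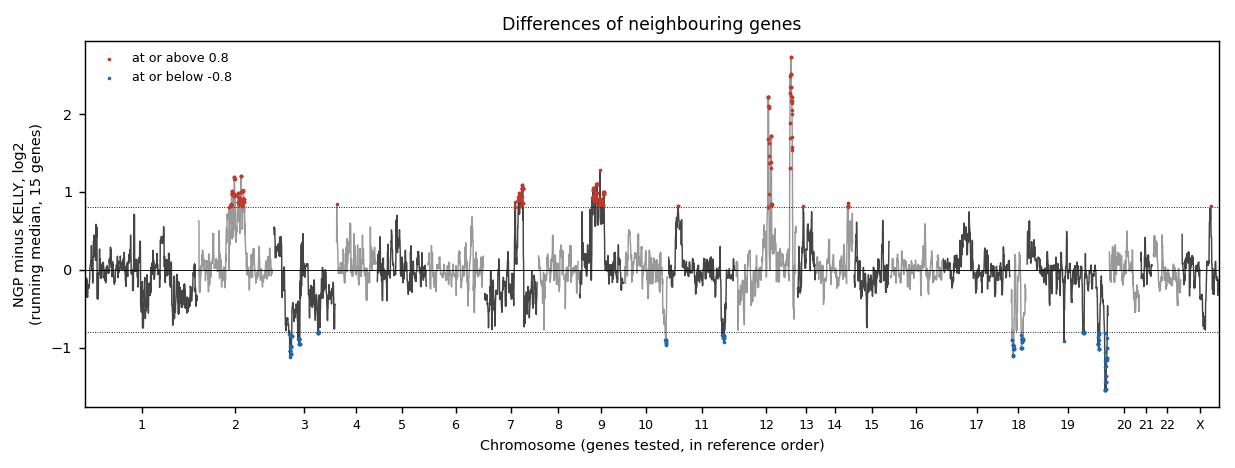
Running median of the log2 difference, NGP minus KELLY, over 15 tested genes in reference order along each chromosome, with windows at or above 0.8 in red and at or below -0.8 in blue. Chromosome 12 holds the peaks, up to 2.73, and the end of chromosome 19 the lowest windows, down to -1.54.

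On chromosome 2 the regions from ITPRIPL1 to CHCHD5, EPB41L5 to VMA22 and PTPN18 to SCN3A had medians of 0.83, 0.85 and 0.87. KELLY lay under the other 3 lines there, by -0.45, -0.79 and -0.56, and NGP above them by 0.24, 0.14 and 0.26. MZT2A, of the gamma-tubulin complex, read 2558, 2545 and 2273 in NGP, against 272, 308 and 319 in KELLY (2.74 ± 0.06). The chemokine receptor CXCR4 in the last of these regions was higher by 2.68 ± 0.08. On chromosome 7 the region from SRRT to ST7 held 69 genes with a median of 0.89, with 29 higher and 2 lower. One of the 2 was MET, which thus ran against its neighbours. KELLY stood at -0.96 against the other lines there and NGP at -0.17. On chromosome 9 the region from TLE4 to XPA had 29 of 67 genes higher, among them ROR2, a WNT5A receptor kinase, at 2.34 ± 0.06. On chromosome 14, BCL11B, a neuronal zinc finger factor, read 893, 860 and 907 in NGP, against 110, 114 and 108 in KELLY (2.69 ± 0.15).

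Regions lower in NGP lay on chromosomes 3, 10, 11, 18 and 19. The region from CCDC106 to ZNF837 on chromosome 19, dense in zinc finger genes, was lower for all 44 of its genes, 26 of them called, with a median of -1.17. ZNF772 read 47.5, 42.0 and 41.0 in NGP, against 363, 354 and 373 in KELLY (-3.34 ± 0.08). ZNF264 and ZNF544 were lower by -3.70 ± 0.18 and -3.13 ± 0.09, and PEG3 lies there too. NGP was under the other 3 lines by -0.84, and KELLY above them by 0.33. On chromosome 3 the region from PLXNB1 to MST1 had 38 of 39 genes negative and 17 called lower, with SHISA5 at -2.89 ± 0.08 and PRKAR2A as given above. On chromosome 18, where 25.1% of 179 genes were lower, the region from RPL17 to PMAIP1 had 14 of 31 lower. There KELLY lay above the other lines by 0.72 and NGP under them by -0.18. On chromosome 10, DOCK1, a RAC1 activator, was lower by -3.71 ± 0.08.

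**Figure D5:**
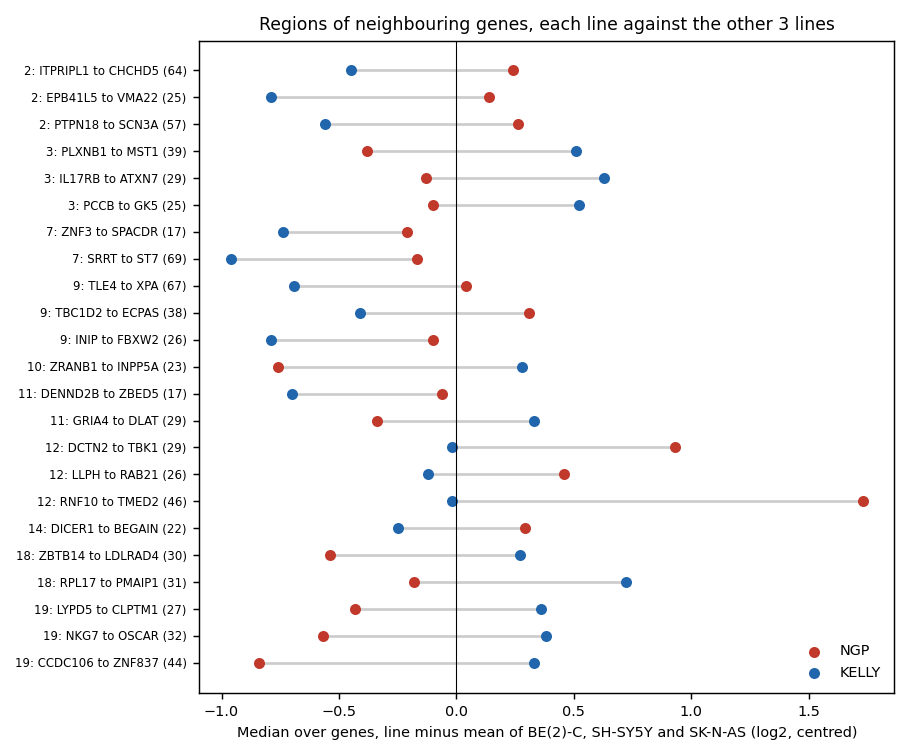
Median log2 level of the genes of each of 23 regions in NGP (red) and KELLY (blue) minus the mean of BE(2)-C, SH-SY5Y and SK-N-AS, on centred arrays, with the number of genes in brackets. In the regions of chromosome 12 KELLY stays near 0 and NGP reaches 1.73, and in those of chromosomes 2, 7 and 9 KELLY is the lower line.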

How the data were processed

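Total RNA of 5 cell lines was hybridised to 15 arrays, 3 per line. Each probe set has 1 deposited intensity on each array, and the submitters' processing notes name MAS5. No source used here gives its version, background correction or scaling. Of 49494 probe sets, 45277 named 1 gene, 1333 several, 2682 none and 202 were controls. Probe sets of several genes named none. RefSeq names of GRCh38.p14 were found for 12713 of the 12721 genes, and that table also gave the order of neighbours. Deposited values were transformed as log2(intensity + 1) and centred on each array's median over tested genes. A limma model (3.58.1, R 4.3.3) with 1 mean per line and an intensity-dependent prior variance was fitted to all 15 arrays. NGP minus KELLY counted as called where the Benjamini-Hochberg adjusted p over all genes was under 0.05 and the log2 difference was 1 or more in size.

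The 2 lines, the gene lists and the tests were chosen with earlier results of these data known. The genes named were the 25 called with the largest difference in each direction, up to 6 called genes of each list and direction or 2 members where none was called, a list of key genes, the ends and up to 4 called genes of each block of neighbours, and 5 genes in each direction in which NGP or KELLY lay beyond all other lines by 2. Not all are printed. On simulated data for this contrast, with 200 of 12721 genes changed by 2 on the log2 scale, 100% were recovered and 0 unchanged genes called. Changes near the threshold of 1 were not simulated, so recovery there is not known. Some genes and 1 gene list are not reported here. No pair of arrays was identical. Alternatives were other scalings, pseudocounts, filters, probe set rules, fits and single arrays left out. The number of arrays limits the precision.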

Additional observations from a re-analysis of the deposited data

How the results depend on the processing

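The main counts were 876 higher and 914 lower. They came to 1485 and 568 as deposited, to 1318 and 627 with equal ERCC medians, and to 4064 and 4203 with no fold threshold. Other counts were within 1.5 times of these, down to 676 and 650 with a floor under low values and 695 and 626 when probe sets of a gene were averaged. With the filter on the means of NGP and KELLY alone, 803 genes were higher and 880 lower, and 803 and 820 of them were also main calls. The fit with the replicate block gave 876 and 914 again. Deviations from the line means correlated at -0.227, -0.137 and -0.067 for same-numbered arrays, and at -0.023 to 0.159 for the other pairs. Deviations from a mean of 3 arrays constrain each other, so these values cannot tell whether same-numbered arrays were prepared together. Leaving out single arrays gave 861 to 892 higher and 904 to 939 lower. The spike-in relative difference of 0.24 was 0.11 over all probe sets and 0.31 with all ERCC probe sets. Of 445 named genes, 402 were on the same side of the call rule as deposited, called or not, 36 lost a call and 7 gained one, and 75 lost it with the mean of all probe sets, including DDC, ISL1, TERT, ACSL4, BCL2, EGR3, EGFR, PCDH9, DCX and GFRA1. That setting turned the sign of a called gene, ERAP1, to -0.62, and signs of genes not called turned in several settings. ISL1 was also lost with quantile normalization and without single arrays. Dim genes limit the folds.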

Other observations

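Surface and immune genes added a few differences that no comparison above covers. PROM1, the stem cell antigen CD133, read 268, 338 and 284 in NGP, against 24.1, 25.2 and 21.2 in KELLY (3.30 ± 0.13). GPC3 and GPC2, glypicans under study as surface targets, were higher by 2.50 ± 0.08 and 1.06 ± 0.07. GPC2 lies in a region on chromosome 7, from ZNF3 to SPACDR, with a median difference of 0.81. Of 23 genes for GD2 synthesis and surface targets, 4 were higher and 1 lower (21.7%, beside 14.1% of all genes). As deposited 8 were higher and 0 lower. Of 19 cancer-testis genes 4 were lower and 0 higher (21.1%, beside 14.1% of all genes). However, 1 was higher as deposited, when probe sets were averaged, and without NGP replicate 2 or KELLY replicate 3. The lower ones included MAGEA1 at 15.9, 19.9 and 16.3 in NGP, against 636, 677 and 661 in KELLY (-5.47 ± 0.12), and MAGEA10 at -4.17 ± 0.11. Of 43 genes of MHC class I and interferon response, 2 were higher and 3 lower (11.6%, beside 14.1% of all genes). The number lower was 1 as deposited and 5 without NGP replicate 2. B2M, the class I light chain, averaged 4340 in NGP and 5007 in KELLY and was not called (-0.50 ± 0.04). XAF1, an interferon-induced gene, was higher by 1.52 ± 0.10. Among 11 multidrug transporters, ABCA1, a cholesterol exporter, was higher by 3.19 ± 0.13 and ABCC3 by 2.04 ± 0.10. ABCB1, the P-glycoprotein, averaged 54.9 in NGP and 100 in KELLY, while BE(2)-C averaged 1396.

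Retinoic acid genes were called for 3 of 11 (27.3%, beside 14.1% of all genes). ALDH1A3, which makes retinoic acid, read 248, 239 and 233 in NGP, against 27.9, 21.9 and 29.7 in KELLY (2.84 ± 0.09). RARB, a receptor and target of retinoic acid, was higher by 1.31 ± 0.08, and STRA6, a retinol importer, lower by -1.36 ± 0.10. Schwann cell markers passed the filter for 2 of 7 genes in NGP and 1 in KELLY, and SOX10 averaged 92.1 in NGP and 68.3 in KELLY without a call (0.15 ± 0.14).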
